A study of Ipomoea batatas with 18 samples.

Results

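Roots of the high-starch sweetpotato (Ipomoea batatas) cultivar Chuanshu 218 were compared with roots of the low-starch cultivar 15-94 at an age of 100 days, the last of 3 sampled ages. Each cultivar had 3 libraries at this age, and all plants were grown in a greenhouse, one root to a pot, in natural light, with no further treatment named in the labels. Levels were read as FPKM, the authors' fragment values scaled by transcript length and by library size, for unigenes, the transcripts of a de novo assembly. A unigene was kept where 3 or more of the 6 libraries at 100 days reached 1 FPKM, which gave 25832 of the 46840 in the table. Of the 18 libraries in the series, the other 12 hold the same cultivars at 30 and 65 days. No label ties a library to a plant, so the p-values below reflect variation from library to library, part of which may be technical. Starch class and cultivar coincide, so neither can be told apart from the other.

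Sweetpotato storage roots form where adventitious roots thicken, and they turn sucrose from the leaves into starch inside amyloplasts. They are also known for large amounts of the storage protein sporamin and of beta-amylase. The labels call the tissue roots. The deposited table does not pair unigenes with gene names and 0 IDs matched the gene table of assembly IBA_r1.0, so root markers and starch genes could not be looked up and no unigene is assigned a function here. Unigene sequences were not analysed here.

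The choice at 1 FPKM in 3 libraries divides a continuous range. The 3485 unigenes just inside it, at this level in exactly 3 libraries, had a median of mean levels of 1.48 FPKM, and the 3169 just outside, with 2 libraries, one of 0.84 FPKM. The kept unigenes included 1474 that reached 1 FPKM only in Chuanshu 218 and 717 that reached it only in 15-94, and these differ between the cultivars by the way they were chosen. A total of 17364 reached 1 FPKM in all 6 libraries.

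Correlations were higher within than between the cultivars. Across the kept unigenes, log2(FPKM + 1) profiles had correlations of 0.884 to 0.917 among the Chuanshu 218 libraries, 0.843 to 0.922 among the 15-94 libraries and 0.718 to 0.810 between cultivars. These values are across unigenes, which are not independent replicates, and describe the profiles. They include the 2191 kept unigenes that reached 1 FPKM in 1 cultivar only and so had to differ. Correlations without these were not computed. Between 33399 and 34134 unigenes were listed above 0 in the Chuanshu 218 libraries and between 26551 and 29277 in those of 15-94. The relative FPKM value of 1 read, a measure of depth read from the steps between low values and set to 0 (log2) in the library of the series with the smallest value, was 0.27 to 0.49 in Chuanshu 218 and 0.95 to 1.20 in 15-94. At 100 days these ranges do not overlap, so depth and cultivar cannot be told apart within this age. This reading as depth assumes no later scaling of the libraries by the authors.

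Taken over all kept unigenes, the libraries of 15-94 varied more. The median standard deviation of a kept unigene was 0.39 (log2, n = 3) in Chuanshu 218 and 0.49 (log2, n = 3) in 15-94. It was larger in 15-94 for 59.4% of them. This held at low levels, with medians of 0.42 and 0.60 (log2) for unigenes with a mean under 5 FPKM over the 6 libraries. At 50 to 200 FPKM the medians were 0.38 and 0.37 (log2), and at 200 FPKM and over 0.48 and 0.47 (log2). Replicate 2 of 15-94 lay at least 2-fold away from both other libraries of its group for 16.2% of the kept unigenes and replicate 3 for 11.9%, against 3.95% to 8.02% for the other 4 libraries. Replicate 3 of 15-94 also stood apart in its most abundant transcripts. The 7 unigenes with its highest values, chosen by those values, took 38.6% of its FPKM and between 1.26% and 3.79% of the FPKM in the other 5 libraries at this age, and 0 of the 7 were called between the cultivars. The same 7 took 22.0% in replicate 3 of 15-94 at 65 days and at most 5.42% in the other libraries at 30 and 65 days.

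Which transcripts differ between 100-day-old roots of the 2 cultivars was the main question. In Chuanshu 218, 1536 of the kept unigenes were higher and 1214 lower than in 15-94, and 23082 were not called. A call needed an adjusted p under 0.05 in limma, fitted to all 18 libraries, and at least a 2-fold difference on log2(FPKM + 1). Calls made up 5.95% (higher) and 4.7% (lower) of the kept unigenes, beside 5.21% and 3.93% of all 32529 unigenes tested. Among the 23641 kept unigenes that reached 1 FPKM in both cultivars the calls were 587 higher and 679 lower. In either direction they were 10.6% of the kept and 9.14% of the tested unigenes. In bulk roots, fewer cells of a type and less RNA per cell cannot be told apart. The median difference of all kept unigenes was 0.18 (log2), with 58.1% above 0, and 40.0% differed by less than 0.5 (log2) in either direction.

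Called differences were large on both sides. The median was 2.10 (log2) for higher and -2.28 (log2) for lower unigenes, or 4.28-fold and 4.84-fold on this scale. Between 2-fold and 4-fold lay 685 of the higher and 451 of the lower calls, and 266 and 312 differed at least 8-fold. At 32-fold or more there were 33 higher and 53 lower unigenes. In 623 of the higher calls all 3 libraries of 15-94 were listed at 0, and in 285 of the lower calls all 3 of Chuanshu 218, so the size of their difference depends on the pseudocount. Without these the medians were 2.13 (log2, 913 unigenes) and -2.20 (log2, 929 unigenes). Reaching 1 FPKM in 1 cultivar only, and so bound to differ, were 949 of the higher and 535 of the lower calls.

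**Figure D1:**
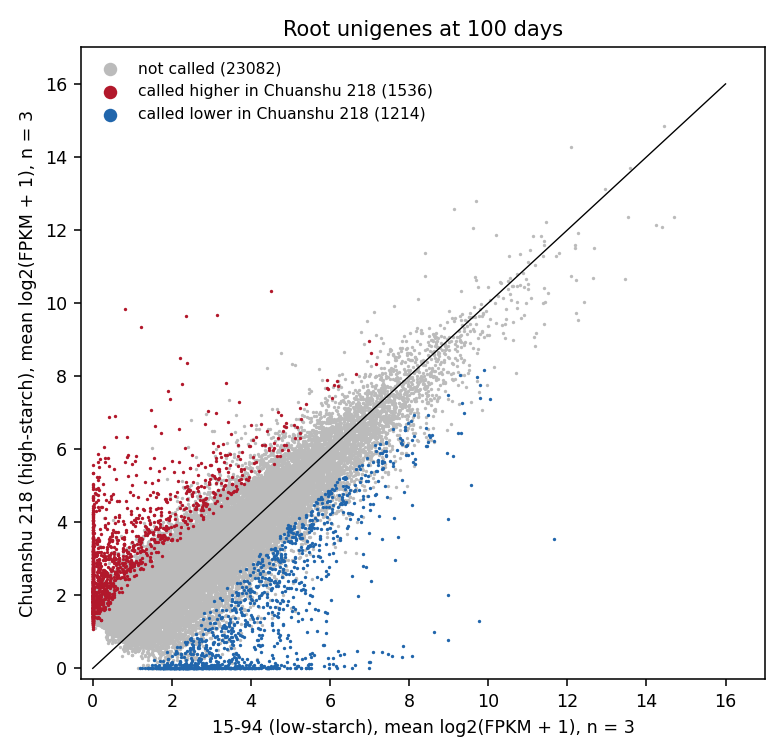
Mean log2(FPKM + 1) of each kept unigene in 15-94 (horizontal) and Chuanshu 218 (vertical) at 100 days, each the mean of 3 libraries, with the line of equal level. The 1536 higher calls (red) crowd at low levels along the vertical axis, and the 1214 lower calls (blue) reach further to the right.

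In the FPKM as deposited, the lower calls were the more abundant ones. At a mean of 50 FPKM and over, 50 were called higher and 170 lower. With the value of 1 read as a covariate these numbers were 80 and 83. The median level of the higher calls was 6.04 FPKM in Chuanshu 218 and 0.15 FPKM in 15-94, and that of the lower calls 1.12 FPKM in Chuanshu 218 and 17.9 FPKM in 15-94. At 100 FPKM or more in the higher cultivar were 43 of the higher and 136 of the lower calls. The higher calls together held 3.09% to 3.36% of the FPKM in the Chuanshu 218 libraries and 0.26% to 0.38% in the 15-94 libraries. The lower calls held 1.12% to 1.37% in Chuanshu 218 and 4.37% to 6.06% in 15-94. Most of the FPKM in both cultivars therefore came from unigenes that were not called.

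Leaving out any 1 of the 6 libraries lowered the number of calls. Without Chuanshu 218 replicate 1, 2 or 3 the higher calls numbered 869, 1011 and 1001. Without 15-94 replicate 1, 2 or 3 they numbered 935, 1001 and 1058. The lower calls numbered 658, 788 and 831 without Chuanshu 218 replicate 1, 2 or 3. They numbered 748, 818 and 841 without 15-94 replicate 1, 2 or 3. In all 6 fits that each leave out 1 of these libraries, 685 of the 1536 higher and 570 of the 1214 lower unigenes were called again, and 0 were called in the opposite direction in any. A fit of the 6 libraries at 100 days alone called 2183 higher and 1665 lower, 8.45% and 6.45% of the kept unigenes, and 1452 and 1152 of the main calls were among them.

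The order of single libraries was read without a model, in the same 6 libraries that the calls compare. In 1532 of the 1536 higher calls every Chuanshu 218 library lay above every 15-94 library. The opposite order separated 1210 of the 1214 lower calls. The calls were chosen for a difference between these libraries, so their order is no separate evidence for them. Among them, 949 higher and 535 lower calls reached 1 FPKM in 1 cultivar only and so had to be separated. Among all kept unigenes, 5547 (21.5%) were separated upwards and 4068 (15.7%) downwards, beside 22% and 13.7% of all unigenes tested, so such separation was common among unigenes without a call. A gap of at least 2-fold on FPKM + 1 between the nearest libraries of the cultivars was seen for 1484 higher and 1085 lower unigenes. These are 5.74% and 4.2% of the kept unigenes, and 4.56% and 3.34% of all unigenes tested. Such a gap puts all 3 libraries of the higher cultivar at 1 FPKM or more, so only kept unigenes can have it. The 2 sets of shares therefore differ only in the number of unigenes they are taken from. A gap of at least 4-fold was left for 360 and 370, one of 8-fold for 116 and 162, and one of 32-fold for 10 and 26. With quantile normalization the 2-fold gap was seen for 1100 higher and 1239 lower unigenes, so the direction with more of them turned.

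The 4 unigenes below are named by rule, 2 in each direction. Among calls whose cultivars did not overlap and whose higher cultivar averaged 10 FPKM or more (528 higher and 804 lower), these are the largest difference and the highest mean level.

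Iba_37888 had the largest higher difference. Its FPKM was 1040.5, 503.9 and 1494.4 in Chuanshu 218 replicates 1, 2 and 3, and 2.71, 0 and 0.46 in 15-94 replicates 1, 2 and 3. All 3 Chuanshu 218 libraries stood far above the others, and the lowest of them was replicate 2. The log2 difference was 9.04 (SE 1.17, limma adjusted p = 6.45e-05).

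Iba_37891 had the highest mean level of the higher calls. It measured 1394.7, 618.7 and 2485.9 FPKM in the Chuanshu 218 libraries and 23.95, 25.04 and 16.73 FPKM in the 15-94 libraries. Replicate 2 was again the lowest of Chuanshu 218 and the groups did not overlap. The log2 difference was 5.84 (SE 1.17, limma adjusted p = 0.00375).

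Iba_34341 had the largest lower difference, with 1.27, 2.45 and 0.91 FPKM in Chuanshu 218 and 943.9, 2284.3 and 297.9 FPKM in 15-94. Replicate 3 of 15-94 was the lowest of its group and the groups did not overlap. The log2 difference was -8.45 (SE 0.78, limma adjusted p = 1.60e-06).

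Iba_37903 had the highest mean level of the lower calls, with 11.62, 7.33 and 14.27 FPKM in Chuanshu 218 and 4775.3, 5256.7 and 1357.6 FPKM in 15-94. Its mean over the 6 libraries ranked 41 among the kept unigenes, and it was the most abundant of all calls by that mean. The log2 difference was -8.11 (SE 0.73, limma adjusted p = 1.36e-06).

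At the younger ages the 4 unigenes differed in how wide the gap was. Iba_34341 had log2 differences of -8.65 at 30 days and -6.92 at 65 days, so its gap was wide at each age. Iba_37903 had -4.88 at 30 and -6.09 at 65 days. Iba_37888 had 3.52 at 30 days (limma adjusted p = 0.0833) and 8.09 at 65 days (adjusted p = 0.000173). Iba_37891 had 2.14 at 30 days (adjusted p = 0.335) and 6.12 at 65 days (adjusted p = 0.00217). The Chuanshu 218 libraries at 30 days were uneven for Iba_37888, with 44.08, 1.4 and 366.8 FPKM, and for Iba_37891, with 17.69, 0.59 and 249.8 FPKM. The change of the gap from 30 to 100 days did not pass in limma for any of the 4, with adjusted p values of 0.92 to 0.99.

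**Figure D2:**
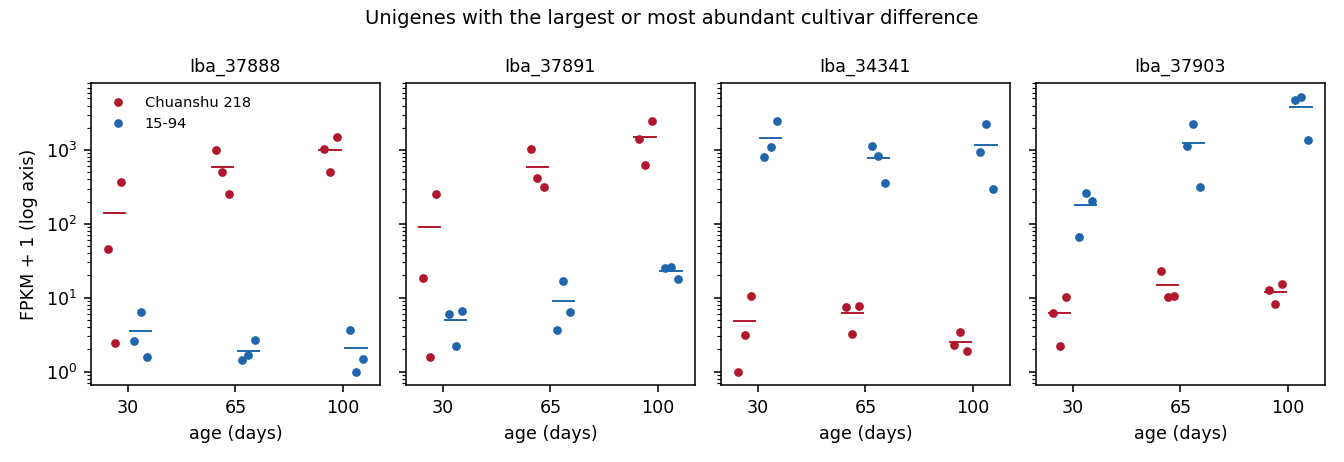
FPKM + 1 (log axis) of the 4 named unigenes in every library at 30, 65 and 100 days, Chuanshu 218 in red and 15-94 in blue, with points for libraries and bars for means of 3. At 100 days the cultivars lie apart in all 4 panels. At 30 days the Chuanshu 218 libraries spread from 1.4 to 366.8 FPKM for Iba_37888 and from 0.59 to 249.8 FPKM for Iba_37891.

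Of the 4 named unigenes, Iba_37888, Iba_37891 and Iba_37903 carry neighbouring ID numbers. They lie in a run of 31 consecutive numbers, found after the values were seen by extending from Iba_37888 while every kept unigene averaged at least 100 FPKM in 1 of the cultivars. The run holds 28 kept unigenes, 16 of them at a mean of 1000 FPKM or more in Chuanshu 218 and 10 in 15-94. It took 14.7%, 6.14% and 17.8% of the FPKM in Chuanshu 218 replicates 1, 2 and 3, and 9.45%, 8.99% and 1.92% in 15-94 replicates 1, 2 and 3. The groups overlapped, with means of 12.9% ± 6.04 and 6.79% ± 4.22 (SD, n = 3 each).

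Members of the run rose and fell together from library to library. All 28 were lowest in replicate 2 within Chuanshu 218, 27 were highest there in replicate 3, and 27 were lowest in replicate 3 within 15-94. The median standard deviation of a member was 0.86 (log2, n = 3) in Chuanshu 218 and 1.01 (log2, n = 3) in 15-94. Taken relative to the summed FPKM of the run in the same library, it was 0.15 and 0.18. Between cultivars the members differed in size and direction, from -8.11 to 9.04 (log2), with 22 above 0 and 6 below.

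The fit of all libraries called 3 of the 28 members higher and 1 lower, where 5.95% and 4.7% of all kept unigenes were called. The fit of the 6 libraries at 100 days called 9 higher and 1 lower, beside 8.45% and 6.45%. On the levels themselves, 14 members lay higher in every Chuanshu 218 library than in every 15-94 library, 1 lay lower and 13 overlapped. Among all kept unigenes, 21.5% were separated upwards and 15.7% downwards. The members moved together between libraries, so they are not separate observations. Relative to the run, 15 members lay higher, 10 lower and 3 overlapped. Dividing by the summed run centres its members on each other, so this split says nothing about the direction of their levels. The run was extended from a called unigene and chosen by levels at this age, so these counts describe it and were not tested. No source used here says whether the authors' counting shared reads between similar unigenes, and its part in these differences was not tested.

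**Figure D3:**
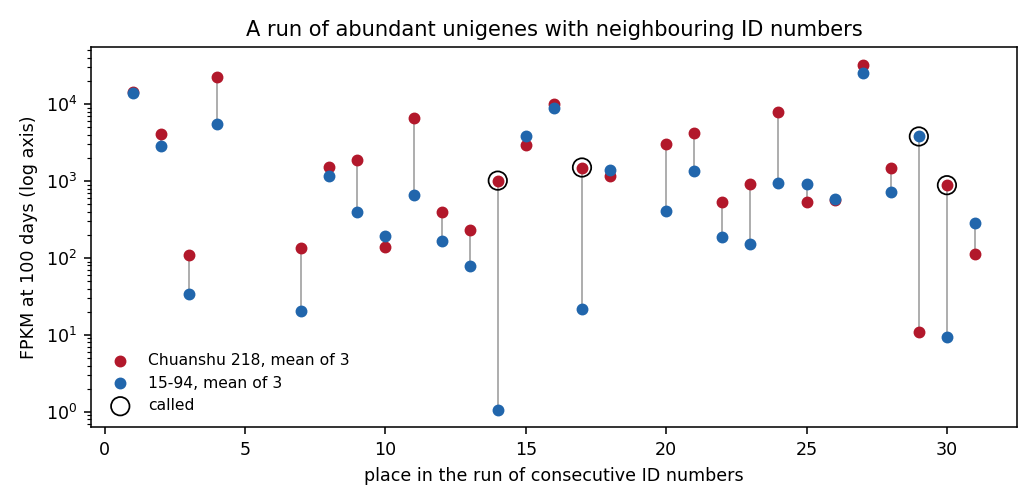
Mean FPKM at 100 days (log axis, n = 3 per cultivar) of the 28 kept unigenes in the run of 31 consecutive ID numbers, Chuanshu 218 in red and 15-94 in blue, with a line joining the 2 means and a ring on the higher mean of each of the 4 called. Most pairs lie within 10-fold, and the 4 ringed pairs lie furthest apart, 3 with Chuanshu 218 above and 1 with 15-94 above.

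The direction of the difference followed abundance. Among the 9675 kept unigenes with a mean under 5 FPKM over the 6 libraries, 978 were higher and 381 lower in Chuanshu 218, 72.0% of these calls higher. From 5 to 20 FPKM the calls were 383 and 445 of 8741 unigenes, and from 20 to 50 FPKM 125 and 218 of 4187. From 50 to 200 FPKM they were 42 and 140 of 2566. At 200 FPKM and over, 8 of 663 were higher and 30 lower, 21.1% of these calls higher. The shares called, from the lowest class to the highest, were 14.0%, 9.47%, 8.19%, 7.09% and 5.73%, so the numbers of calls also follow the sizes of the classes. The median difference ran from 0.47 (log2) in the lowest class to -0.27 (log2) in the highest. The lowest class holds 1855 of the 2191 unigenes that reached 1 FPKM in 1 cultivar only and so had to differ.

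The calls were also counted without these 2191, a restriction added after the values were seen, which itself removes unigenes of low level that differ. Of the 23641 left, 587 were called higher and 679 lower, 46.4% higher, so lower calls then outnumbered higher ones. Under 5 FPKM 158 were higher and 40 lower, 79.8% higher, and at 200 FPKM and over 8 and 29, 21.6% higher. The share of unigenes called under 5 FPKM was 2.53% without them and 14.0% with them, so no trend of this share with abundance can be read.

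Other treatments of the values narrowed this gradient. Quantile normalization called 1276 higher and 1372 lower, 48.2% higher against 55.9% as deposited, with 58.4% below 5 FPKM and 35.9% from 200 FPKM up. With the value of 1 read as a covariate, fitted over all 18 libraries, 1066 were higher and 775 lower, a share of 68.1% below 5 FPKM and 48.4% from 200 FPKM up. That covariate moved the median difference of all kept unigenes from 0.18 to 0.07 (log2). The class medians, from the lowest class to the highest, were then 0.21, 0.01, -0.04, 0.01 and 0.13 (log2).

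**Figure D4:**
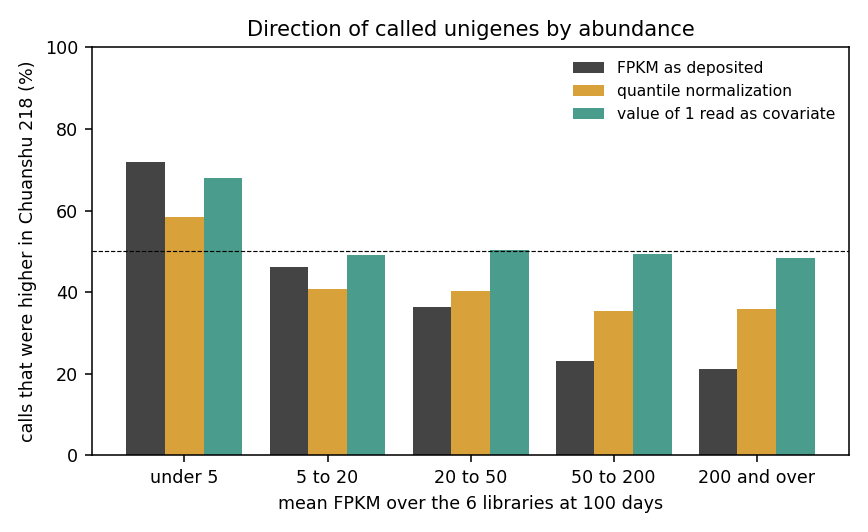
Share of called unigenes that were higher in Chuanshu 218 (percent) by mean FPKM over the 6 libraries at 100 days, for FPKM as deposited, quantile normalization and the value of 1 read as a covariate, with a dashed line at equal shares. As deposited the share falls from 72.0% under 5 FPKM to 21.1% at 200 FPKM and over, and with the covariate it lies near the dashed line in all classes but the lowest.

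Some unigenes had values in a single cultivar. Of the 25832 kept unigenes, 714 reached 1 FPKM in each Chuanshu 218 library and were listed at 0 in each 15-94 library. Their median of mean levels was 3.08 FPKM and their highest mean 47.6 FPKM. The opposite listing was found for 314 unigenes, with a median of 5.01 and a highest mean of 126.2 FPKM. Raising the minimum to 5 FPKM left 94 and 87, and 10 FPKM left 32 and 45, so the excess on the Chuanshu 218 side lay in unigenes of low level. Without 15-94 replicate 3 they were 1000 and 652. Leaving out any library loosens the rule, so the counts cannot fall, and no other library was left out here. Absence cannot be read from a listed 0, and a single read counted for more FPKM in the 15-94 libraries.

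These listings extended to the other ages in part. Of the 714 unigenes, 522 were listed at 0 in all 15-94 libraries at 30 days and 496 at 65 days, and 380 and 435 reached 1 FPKM in all Chuanshu 218 libraries at those ages. Of the 314, 243 and 240 were at 0 in all Chuanshu 218 libraries at 30 and 65 days, and 189 and 233 reached 1 FPKM in all 15-94 libraries. Of the 46840 unigenes, the 15-94 libraries listed 24300 to 29446 above 0 at 30 days and 26788 to 31939 at 65 days. The Chuanshu 218 libraries listed 28886 to 34923 and 30023 to 36939. Zeros were thus common, and the share of all kept unigenes at 0 at these ages was not computed.

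Whether the differences at 100 days were present in younger roots was read from the 12 libraries at 30 and 65 days, for unigenes called in the fit of the 6 libraries at 100 days alone. Of the 2183 higher unigenes, 2053 (94.0%) were also above 0 at 30 days and 2042 (93.5%) at 65 days, beside 58.4% and 54.2% of all kept unigenes. Of the 1665 lower unigenes, 1540 (92.5%) were below 0 at 30 days and 1601 (96.2%) at 65 days, beside 41.6% and 45.8%. At least 2-fold in the same direction were 61.8% and 67.7% of the higher unigenes at 30 and 65 days, beside 15.2% and 16.6% of the kept ones, and 59.3% and 68.6% of the lower unigenes, beside 10.2% and 11%.

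The sizes were smaller at the younger ages, for unigenes that had been chosen for their values at 100 days. The higher unigenes had a median difference of 1.29 (log2) at 30 days, 1.55 at 65 days and 1.88 at 100 days. The lower unigenes had -1.29, -1.63 and -1.99 (log2). With no overlap of libraries in the same direction were 1149 higher (52.6%) and 838 lower (50.3%) unigenes at 30 days, beside 12.2% and 7.97% of the kept ones, and 1325 (60.7%) and 995 (59.8%) at 65 days, beside 14.1% and 10.3%. Full separation in the opposite direction was seen for 5 higher and 1 lower unigenes at 30 days and for 3 and 0 at 65 days.

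**Figure D5:**
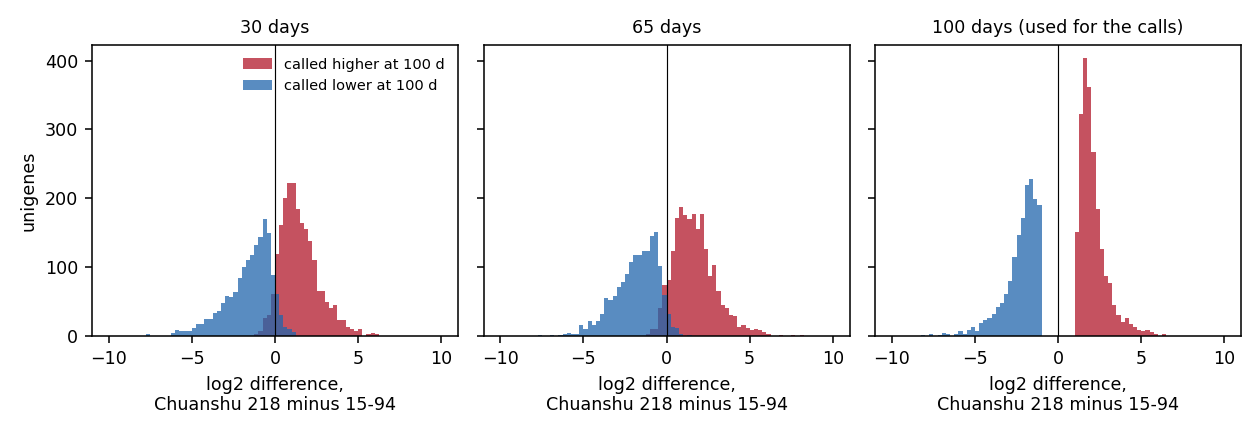
Number of unigenes by log2 difference (Chuanshu 218 minus 15-94) at 30, 65 and 100 days, for the 2183 unigenes called higher (red) and 1665 called lower (blue) in the 6 libraries at 100 days. At 30 and 65 days most of each group lies on the same side of 0, with medians of 1.29 and 1.55 for the higher and -1.29 and -1.63 for the lower group.

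A gap particular to 100 days needs a test of the change of the gap, and 0 of 32529 unigenes passed it. By limma, 1683 unigenes had an unadjusted p under 0.05 for the gap at 100 minus that at 30 days (5.17%), 1544 for 100 minus 65 days (4.75%) and 1619 for 100 days minus the mean of both (4.98%). The smallest adjusted p values were 0.92, 0.948 and 0.93. Library weights, an alternative fit, called 27 higher and 40 lower kept unigenes for 100 minus 30 days, 38 and 42 for 100 days minus the mean, and 0 for 100 minus 65 days. A p that misses the threshold does not show that the gaps were equal.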

How the data were processed

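Total RNA from roots was extracted with Trizol, freed of DNA and made into TruSeq stranded mRNA libraries, per the labels' protocols. The authors deposited 1 table of FPKM values for 46840 unigenes. The edgeR package is named in the submitters' processing notes without its purpose. No source used here gives the assembler, the aligner, the counter or a scaling between libraries. Count models were left out, since FPKM is no count. The 32529 unigenes reaching 1 FPKM in 3 or more of the 18 libraries entered 1 linear model of log2(FPKM + 1) over 6 groups (limma 3.58.1, R 4.3.3; eBayes with trend, 12 residual degrees of freedom), and p-values were adjusted over all of them by Benjamini-Hochberg. Differences on this scale understate changes at low levels. The fit was tested on simulated data. Read numbers are unknown, so no counting interval is given. Relative depth came from the most frequent ratio of values under 5 FPKM between library pairs. Of these ratios 97.1% lay within 0.05 (log2) of the fitted values. Same-numbered libraries were not taken as pairs. Alternatives were other pseudocounts, filters, scalings, weights, a depth covariate, a replicate block and leaving out libraries. Leaving out low-starch replicate 3 at 65 and 100 days together, or at 100 days for the descriptive counts, was chosen after seeing the data. The named unigenes follow a rule on size and level of the called difference, with at most 2 IDs per direction because IDs carry no gene names. The unigenes, lists and tests were chosen with earlier results of these data known. Python 3.11.15, NumPy 2.4.6, pandas 2.3.3 and Matplotlib 3.10.9 were used.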

Additional observations from a re-analysis of the deposited data

How the results depend on the processing

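At 100 days, the 1536 higher and 1214 lower calls became 977 higher under a 5 FPKM filter, where fewer unigenes are tested (46.6% of its calls higher), 4570 and 2969 with array weights, 775 lower with the value of 1 read as a covariate, and 993 higher without low-starch 65 d replicate 3 and 100 d replicate 3 together, which was chosen after seeing the data. The cause was not tested. Leaving out each 100-day library in turn gave 869 to 1058 higher and 658 to 841 lower calls. For the change of the gap, array weights called 27 higher and 40 lower against 30 days and 38 and 42 against the mean of 30 and 65 days, in place of 0. Separated unigenes numbered 5547 and 4068 with no overlap, 360 and 370 with a 4-fold and 116 and 162 with an 8-fold gap. Listings in 1 cultivar numbered 94 and 87 at a minimum of 5 FPKM, and 1000 and 652 without low-starch 100 d replicate 3, a looser rule. The 4 named unigenes were chosen for large or abundant differences in these same libraries, so refitting them gives no separate evidence. They kept their direction and call in all 19 alternatives each, at limma adjusted p values of at most 0.0244. Under the other alternatives run, these counts stayed within 1.5 times of their values, and the median differences of the calls ran from 1.07 to 1.65 and -1.66 to -1.29 (log2) at 30 days and from 1.44 to 1.85 and -2.01 to -1.63 at 65 days. The replicate block gave 1682 higher and 1360 lower calls, and 0 for the changes of the gap. Same-numbered libraries of the cultivars at 100 days had correlations of 0.0042, 0.30 and 0.44 between their deviations from the group means, against 0.25, 0.084 and -0.19 at 30 days and 0.34, 0.40 and 0.10 at 65 days. At 65 days each library correlated best with its own number, at 30 and 100 days not all did, so the libraries share a number and are not shown to be pairs. The unknown absolute depth limits statements on unigenes near 1 FPKM.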

Other observations

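The most abundant transcripts were compared between the cultivars at 100 days. The 100 unigenes with the highest mean in Chuanshu 218 and the 100 with the highest mean in 15-94 shared 73, and the lists of 1000 shared 712. They held 28.7% and 37.6% of the FPKM for the lists of 100, the latter with the uneven 15-94 replicate 3 included. Of the 100 with the highest mean over the 6 libraries, 0 were called higher and 1 lower, and 62 differed by less than 2-fold. Calls made up 10.6% of the kept unigenes, but 5.36% of those that reached 1 FPKM in both cultivars. At a mean of 200 FPKM and over they made up 5.73%. The lists of 10 shared 6. Of the 10 with the highest mean over the 6 libraries, 3 differed by less than 2-fold and 0 were called. Their median difference was -1.57 (log2). The ranking and this median include 15-94 replicate 3, in which 7 unigenes held 38.6% of the FPKM. Values without that library were not computed.

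Called unigenes were more often next to one another in ID number than calls were among the kept unigenes. Of 977 higher calls whose next ID number was also kept, 107 (11.0%) were followed by a higher call, where 5.95% of the kept unigenes were higher calls, and 72 (7.37%) by a lower call. Of 827 lower calls, 98 (11.9%) were followed by a lower call, where 4.7% of the kept unigenes were lower calls, and 67 (8.10%) by a higher call. No source used here says what the order of the ID numbers stands for, and these values were not tested.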
